A study of Mus musculus with 4 samples.

Results

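The genes described here encode the machinery that turns sugars into ATP: the subunits of the mitochondrial respiratory chain and ATP synthase, the carriers of the inner mitochondrial membrane, the pyruvate dehydrogenase complex and citrate synthase, the glucose transporters and the enzymes of glycolysis. They were chosen by gene symbol alone, from families such as Ndu, Cox4 to Cox8, Uqcr, Atp5, Sdh, Slc25a, Slc2a and Ldh and from single enzymes such as Gapdh, Tpi1 and Pkm, and the rule uses no measured value. The choice gave 100 genes of 6137 with a single symbol on the 2 chips, of which 31 were on chip B, 79 on chip A and 10 on both. The B chip carried 39 probe sets for them and the A chip 93, 6 of which are Gapdh control probe sets.

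The series set memory against naive CD8 T cells, both with the transgenic B6.2.16 receptor, which recognises the male HY antigen. Memory cells began as splenocytes of B6.2.16 donors, female and RAG1-deficient, that were cultured for 4 days with HY peptide, transferred into female RAG1-deficient mice, and collected 200 days later from spleen and lymph nodes with magnetic beads (purity given as above 80%). Naive cells were taken directly from lymph nodes of such female RAG1-deficient donors (purity given as above 85%). Each population was hybridised to an A chip and a B chip of an Affymetrix mouse set, so each group had 1 array per chip, and no spread, standard error or p-value can be given. All donors and hosts lacked RAG1 and therefore formed no B cells or T cells of their own receptor rearrangement. Organ, culture, transfer, host and sorting cannot be told apart from memory status, and neither the ages of the mice nor any pooling of animals is given in the sources used here.

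In the respiratory chain, complexes I and II pass electrons from NADH and succinate through complex III and cytochrome c to oxygen at complex IV, and ATP synthase uses the proton gradient that results. Glycolysis breaks glucose down to pyruvate in the cytosol, where lactate dehydrogenase can convert it to lactate. In T cells, quiescent naive and memory cells are known to rely mainly on mitochondrial respiration, whereas activated effector cells increase glycolysis.

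The values are probe set intensities, and those of the B chip were scaled to a common 2% trimmed mean. A floor of 423 was set on the B chip from the negative values of its noisier array, and signals under it were treated as noise. On the A chip the noise limit of the memory array was 184. Memory and naive values of the member probe sets had a Spearman correlation of 0.96 across 39 probe sets of the B chip. Over all 6540 gene probe sets of that chip the correlation was 0.85. On the A chip it was 0.093 across 87 member probe sets and 0.10 over all gene probe sets, which share an array and are no replicates. Since naive A values hardly tracked the listed genes, only the level on the memory array is given for the A chip. In bulk samples such as these, fewer cells of a type and less RNA per cell cannot be told apart.

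The first question was whether memory and naive cells differ in these genes on the B chip. Of the 31 members on that chip, 17 were measured, meaning above the floor on 1 array or both, and in each of the 17 the memory and naive values lay within 2-fold of each other once dimmer values were raised to that floor. In 2 of them, Ndufv1 and Pfkfb2, the memory value lay under the floor, so that their ratio is only a bound. None was called at least 2-fold higher or lower, where a call also required the brighter array to reach 846, which is 2 times the floor. Only the 11 members that reached 846 could have differed by 2-fold in this way. For the rest the floor alone kept the ratio under 2-fold. Among all 462 measured genes of the chip, 8.87% were called higher and 8.66% lower in memory, or 17.5% in both directions. Of the 249 genes bright enough to be called, 32.5% were called, against 0 of 11 members. Those 249 include genes that were bright on 1 array only. The 11 members all had mean intensities between 846 and 3382, a range for which the calls of other genes are given below. The all-gene split was 41 higher to 40 lower as reported, 51 to 32 after median-ratio scaling, 48 to 21 after quantile and 45 to 21 after intensity-dependent normalization. The median log2 ratio of memory over naive was 0.028 over the 17 measured members and -0.12 over all measured genes. The member ratios ranged from -0.82 for Pkm to 0.65 for Aldoa, each from the probe set with the highest value on either array. With the mean of the probe sets of a gene, Pkm gave -0.27, Aldoa 0.28 and Cox7a2l -0.67. After median-ratio scaling the member median became 0.18 and the all-gene median -0.0048, after quantile normalization 0.13 and -0.0089, and after intensity-dependent normalization 0.22 and -0.031. Being 1 pair of arrays, this compares those arrays and not the conditions at large.

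**Figure D1:**
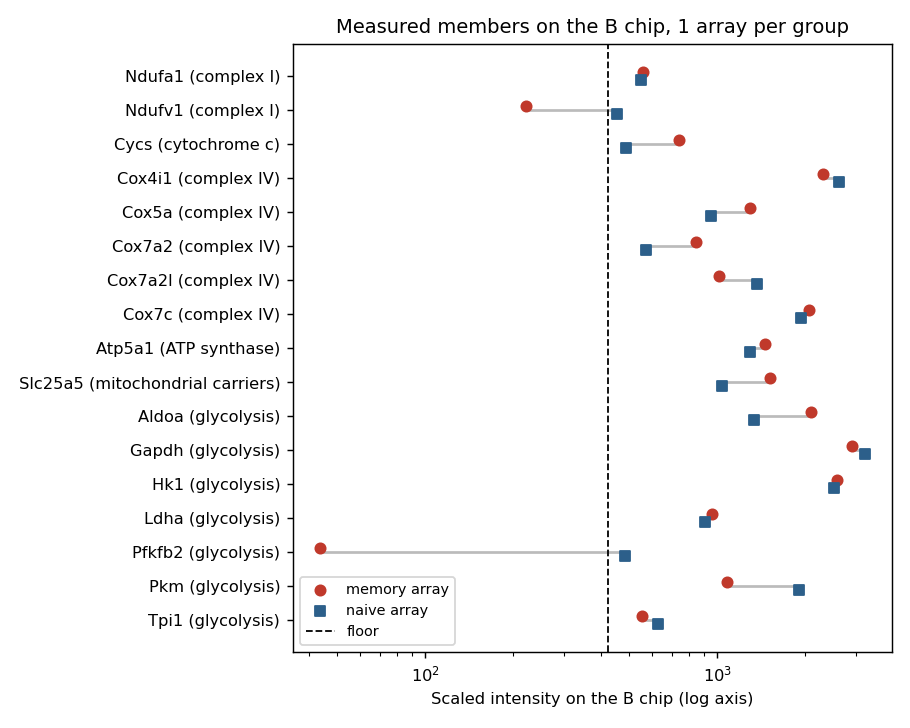
Scaled intensity (log axis) of the 17 measured members on the memory array (circles) and the naive array (squares) of the B chip, ordered by role, with the floor as a dashed line. The memory values of Ndufv1 and Pfkfb2 lie below the floor of 423, and no pair of values above the floor is 2-fold apart.

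Taking the geometric mean of both arrays, with values under the floor raised to it, 6 of the 17 measured members lay in the lowest band, between 423 and 846: Ndufv1, Pfkfb2, Ndufa1, Tpi1, Cycs and Cox7a2. Their ratios went from -0.19 to 0.60, while 18 of 261 other genes in that band were called higher and 15 lower, with a median of -0.12. Another 7 members lay between 846 and 1691, with ratios from -0.82 to 0.65. In the same range 18 of 93 other genes were called higher and 3 lower, with a median of 0.079. Between 1691 and 3382 there were 4 members, Cox7c, Cox4i1, Hk1 and Gapdh, with ratios from -0.18 to 0.098, and 50 other genes of which 5 were called higher and 3 lower. Above 3382 there was no member, and 19 of 41 other genes were called lower there, with a median of -0.89. No member thus lay in the brightest range, where the ratios were mostly negative.

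**Figure D2:**
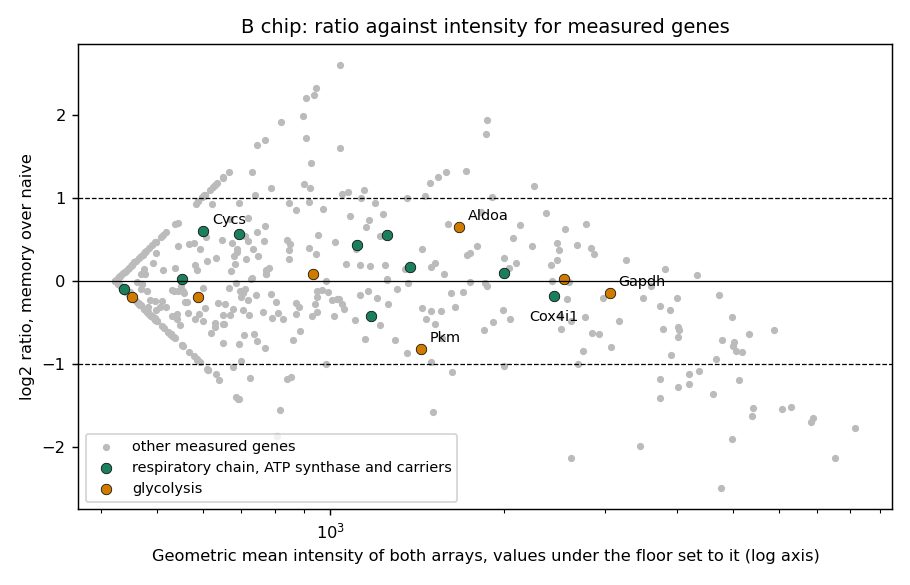
log2 ratio of memory over naive (vertical axis) against the geometric mean intensity of both arrays (log axis) for measured genes of the B chip, with dashed lines at 2-fold. Members (filled points) lie between -0.82 and 0.65, and the brightest genes, none of them a member, bend downwards.

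Within the respiratory chain, 9 of 14 members on the B chip were measured, with a median log2 ratio of 0.098, and 6 of the 9 ratios were positive. Cycs, the soluble carrier cytochrome c that brings electrons to complex IV, read 739 in memory and 489 in naive cells, a 1.51-fold higher value in memory. The log2 ratio was 0.60, and 0.16 in its other probe set, which read 471 in memory and 413 in naive cells, the naive value under the floor. Cox7a2, a small subunit of complex IV, read 844 in memory and 570 in naive cells, a log2 ratio of 0.57. Cox5a, a nuclear-encoded complex IV subunit, read 1293 against 956 in naive cells, a ratio of 0.44. The brightest probe set of each of these 3 genes lay above the floor on both arrays and higher on the memory array, by less than 2-fold.

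The other complex IV subunits gave smaller or negative ratios. Cox7c, another small subunit, read 2072 in memory and 1935 in naive cells (log2 ratio 0.098). Cox4i1, a regulatory subunit, read 2296 in memory and 2604 in naive cells (-0.18), and its ratio became 0.099 with intensity-dependent normalization. Cox7a2l, which takes part in joining complexes into supercomplexes, read 1016 in memory and 1366 in naive cells (-0.43). Its other probe set read 604 in memory and 1204 in naive cells (-0.99), next to the 2-fold line. Both Cox7a2l probe sets thus lay lower on the memory array, while Cox5a and Cox7a2 lay higher.

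Complex I was read by Ndufa1, an accessory subunit, with 559 in memory and 548 in naive cells, and by Ndufv1, the subunit that binds NADH. Ndufv1 read 222 in memory, under the floor, and 452 in naive cells, just above it. Its log2 ratio of -0.098 is therefore only a bound, and with the floor halved it was -1.02, past 2-fold. Atp5a1, the alpha subunit of ATP synthase, read 1458 in memory and 1301 in naive cells (log2 ratio 0.16). Ndufa12, Sdhd, Atp5j2, Atp5pb and Cox6a2 were not above the floor on either array.

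Among the mitochondrial carriers, only Slc25a5 was measured of 5 on the B chip. It encodes the adenine nucleotide translocase found in most tissues, which exchanges mitochondrial ATP for cytosolic ADP, and read 1518 in memory and 1037 in naive cells, a log2 ratio of 0.55. The muscle and heart form Slc25a4 read 357 in memory and 306 in naive cells, both under the floor. The aspartate and glutamate carrier Slc25a13, together with Slc25a44 and Slc25a48, was under it as well.

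Glycolysis had 7 of 10 members measured, with 3 positive log2 ratios, 4 negative ones and a median of -0.15, which became 0.0016 after median-ratio scaling and 0.35 after intensity-dependent normalization. Aldoa, the aldolase that splits fructose bisphosphate, read 2092 in memory and 1335 in naive cells, a 1.57-fold higher value in memory. A second Aldoa probe set read 1924 in memory and 1977 in naive cells, a log2 ratio of -0.039. Pkm, the pyruvate kinase of the last step of glycolysis, read 1080 in memory and 1904 in naive cells, 1.76-fold lower in memory. A second Pkm probe set read 1351 in memory and 1028 in naive cells, a log2 ratio of 0.39 in the opposite direction. The glycolytic enzymes with the widest ratios therefore did not keep their direction or size between probe sets of the same gene.

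Ldha, the lactate dehydrogenase chain of glycolytic tissues, read 961 in memory and 907 in naive cells, a log2 ratio of 0.084. Its second probe set read 939 in memory and 538 in naive cells, a ratio of 0.80. The intensity-dependent normalization turned the second one into the brighter probe set, which gave 0.88 for the gene. Hk1, the hexokinase that traps glucose in most cells, read 2564 in memory and 2519 in naive cells, a ratio of 0.026. Tpi1, triose phosphate isomerase, read 551 in memory and 629 in naive cells, a ratio of -0.19. Pfkfb2, which makes the activator of phosphofructokinase, read 43.7 in memory, under the floor, and 484 in naive cells. Its ratio of -0.19 is a bound and was -1.19 with the floor halved. Hk2, the inducible hexokinase, Ldhb, the lactate dehydrogenase chain of heart, and Eno3, the muscle enolase, were not above the floor on either array. Neither glucose transporter on the chip was above it, with Slc2a2, the transporter of liver and pancreatic beta cells, at 91.3 in memory and 178 in naive cells, and Slc2a4, the insulin-responsive transporter, at 8.93 in memory and -9.07 in naive cells.

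The spread between probe sets of 1 gene shows how far a ratio depends on the probe set, within the same 2 arrays. It holds no variation between animals, preparations or hybridisations, of which these arrays give no measure. In 33 genes of the B chip with several probe sets above the floor on both arrays, the log2 ratios of a gene differed by a median of 0.26, and in 10 of the 33 by more than 0.5. The 4 members among them, Aldoa, Cox7a2l, Ldha and Pkm, differed by 0.69, 0.57, 0.72 and 1.21. The ratios reported for these genes were 0.65, -0.43, 0.084 and -0.82. The difference between probe sets was wider than this reported ratio in each of the 4. Direction was kept for Cox7a2l, lower in memory (-0.43 and -0.99), and for Ldha, higher in memory (0.084 and 0.80). It was not kept for Aldoa (0.65 and -0.039) and Pkm (-0.82 and 0.39). On the B chip 23 of 39 member probe sets were of the sequence-family class, designed against groups of similar sequences, and genes such as Gapdh and Ldha are known to have many processed pseudogenes. How their signal divides between copies was not tested.

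Gapdh, the dehydrogenase at the middle of glycolysis, could be followed along its transcript with control probe sets printed on both chips. The gene's own probe set read 2901 in memory and 3214 in naive cells, a log2 ratio of -0.15. The control probe set at the 3′ end read 2988 in memory and 2712 in naive cells (log2 ratio 0.14). The one in the middle read 2190 in memory and 3099 in naive cells (-0.50). The one at the 5′ end read 1701 in memory and 2178 in naive cells (-0.36). Gapdh thus read higher or lower in memory according to the stretch that was probed. The 3′ signal was 1.76 times the 5′ signal on the memory B array and 1.81 times on the memory A array, against 1.25 times on the naive B array. For the beta-actin control the ratio was 0.747 and 0.792 on the memory B and A arrays and 1.17 on the naive B array, so the controls moved in opposite directions. The part of transcript coverage in the ratios of other members was not tested. The gene's own ratio became 0.0016 after median-ratio scaling, 0.41 after quantile and 0.40 after intensity-dependent normalization, so that its direction depended on the scaling as well.

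**Figure D3:**
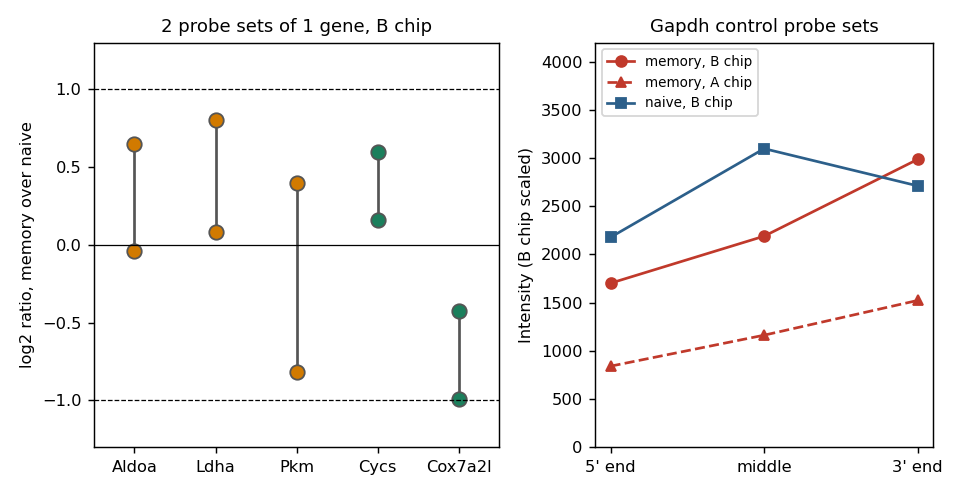
Left, log2 ratio of memory over naive for each of 2 probe sets of 5 members on the B chip, joined by a line, with dashed lines at 2-fold. Right, intensity of the Gapdh control probe sets at the 5′ end, middle and 3′ end on the memory B and A arrays and the naive B array. The 2 Pkm probe sets lie on opposite sides of 0, and the naive and memory B lines for Gapdh cross between the middle and the 3′ end.

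**Figure D4:**
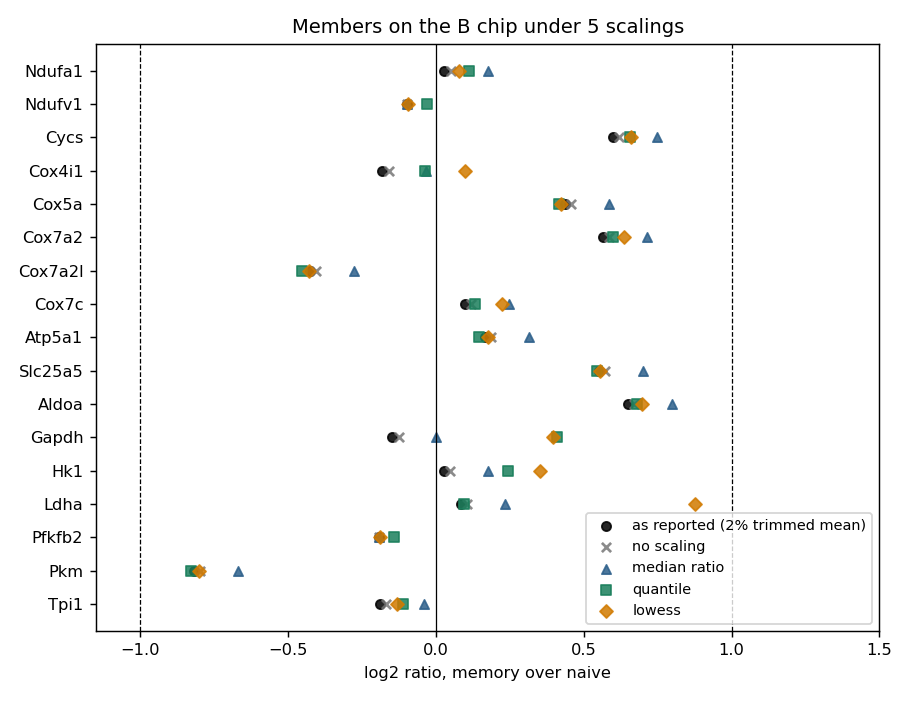
log2 ratio of memory over naive for the 17 measured members of the B chip under 5 ways of scaling the 2 arrays, with dashed lines at 2-fold. No member reaches 2-fold under any of the 5, and Gapdh and Cox4i1 cross 0. Values under the floor are raised to it, so the ratios of Ndufv1 and Pfkfb2 are bounds.

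Marker genes of some other cell types also read differently on the memory and naive arrays, which does not tell whether cell numbers differed. Of 11 macrophage and monocyte markers on the B chip, all 11 were measured and 6 were called higher in memory, and their summed intensity was 28398 in memory and 16409 in naive cells. For 5 erythroid markers the sum was 7397 in memory and 18706 in naive cells, with 1 called higher and 2 lower. For 6 CD8 T cell markers it was 4948 in memory and 8800 in naive cells, with values under the floor included. The 1 called lower, Thy1, read 2848 in memory and 6184 in naive cells and made up most of both sums. Cd3d read 959 in memory and 1115 in naive cells. Cd8a itself read 498 in memory and 352 in naive cells, the naive value under the floor. Of 3 granulocyte markers 2 were measured with 0 called, at a sum of 4592 in memory and 3714 in naive cells. NK cell markers summed to 381 in memory and 1064 in naive cells over 2 genes, with 0 called. B cell markers were not above the floor in either group, with sums of 20.8 in memory and 69.5 in naive cells over 2 genes, Cd79a below zero in memory and Pax5 below zero in naive cells, but on the memory A array Ms4a1, 1 of 2 B cell markers there, read 301, above the noise limit of 184. The part of these other cells in the values of the energy genes was not tested.

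Related pathways gave few readings on the B chip. Of 98 listed genes of the citric acid cycle, pyruvate handling, pentose phosphate pathway, fatty acid oxidation, mitochondrial import, chain assembly and their regulators, 14 lay on the chip and 4 were measured, with 0 called. The mitochondrial chaperonin Hspd1 read 938 in memory and 1303 in naive cells (log2 ratio -0.47). The import motor subunit Timm44 read 1581 in memory and 1409 in naive cells (0.17), and the kinase Akt1, which promotes glucose uptake, read 622 in memory and 546 in naive cells (0.19). Phb2, a prohibitin of the inner membrane, read 350 in memory, under the floor, and 511 in naive cells. Tfam, the mitochondrial DNA transcription factor, and the lactate transporter Slc16a1 were under the floor in both groups.

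On the A chip the question is which of these genes the memory preparation expressed at a detectable level. Of 78 members read there by gene probe sets, 42 were above the noise limit of 184, or 53.8%, against 29.5% of all 4775 genes of the chip. With the noise limit doubled 25 members were above it, or 32.1%, against 15.0% of all genes. With only probe sets without a class letter (a letter in the name that marks similar or shared sequences), 3 of 16 members were above it, or 18.8%, against 17.5% of 1466 genes, so that the share of members was then close to that of all genes. Levels of different probe sets are not ranked against each other, since each has its own affinity. Of 9 members with several probe sets on the chip, 4 had their brightest above the limit, and in 3 of these, Atp5b, Cox7b and Slc25a51, the other probe set was below it.

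In ATP synthase, 10 of 11 subunits were above the limit, from 294 to 801. Atp5a1, the alpha subunit, read 759, the catalytic beta subunit Atp5b 464 (82 in its other probe set) and the gamma subunit of the rotor, Atp5c1, 294. The membrane ring subunit Atp5g1 read 376, Atp5j, a part of the peripheral stalk, 301 and the small membrane subunit Atp5k 453. Atp5l, Atp5md, Atp5mpl and Atp5o were above it as well, and Atp5d, the delta subunit, read -192.

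Complex I had 11 of 19 members above the limit, from 192 to 1327. Among its accessory subunits Ndufa3 read 541, Ndufb1 347, Ndufb11 719, Ndufb2 198, Ndufb3 1327 and Ndufb5 192. Ndufb7, Ndufs3, Ndufs4, Ndufv2 and Ndufv3 were also above it, of which Ndufs3 and Ndufv2 belong to the catalytic core. Below it were Ndufa10, Ndufa11, Ndufa5, Ndufab1, Ndufb10, Ndufb6 and the assembly factors Ndufaf1 and Ndufaf4. In complex II the iron-sulphur subunit Sdhb read 324, while the membrane anchor Sdhc read 40 and the assembly factor Sdhaf1 103.

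In complex III 4 of the 7 members on the chip were above the limit. The small subunits Uqcr10 read 444, Uqcr11 391, Uqcrb 213 and Uqcrq 386. The core proteins Uqcrc1 and Uqcrc2 read -163 and 42, and the Rieske iron-sulphur protein Uqcrfs1 read -37. Cyc1, the cytochrome subunit of complex III, which the gene families above do not include, read 381. The deposited values do not tell a missing transcript from an insensitive probe set.

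**Figure D5:**
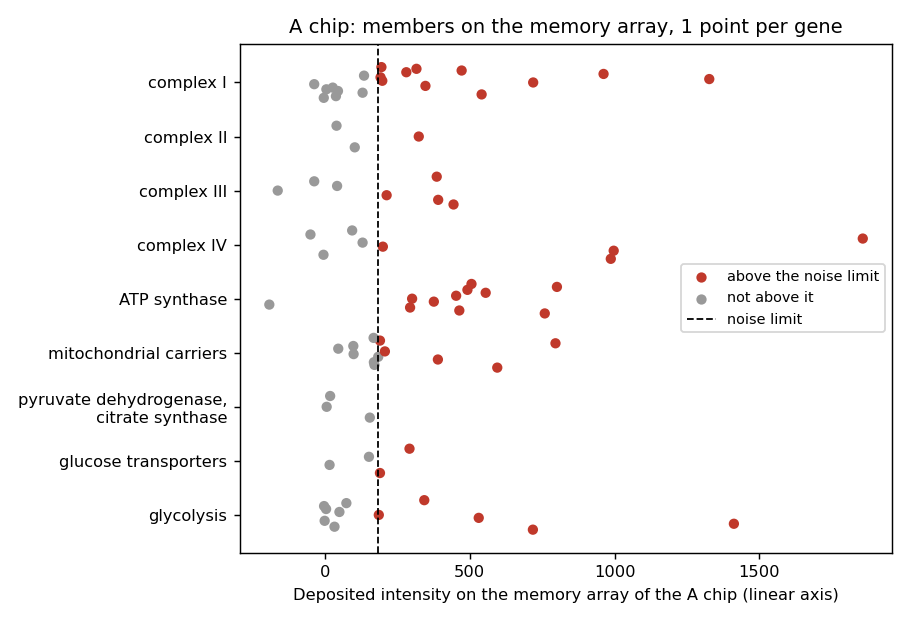
Deposited intensity (linear axis) of 78 members on the memory array of the A chip, 1 point per gene, by role, with the noise limit of 184 as a dashed line. In ATP synthase 10 of 11 points lie above the limit, and all 3 points of pyruvate dehydrogenase and citrate synthase lie below it.

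Carriers and the entry of fuel were read as follows. Of 12 carriers 5 were above the limit: the citrate carrier Slc25a1 at 595, the peroxisomal carrier Slc25a17 at 390, Slc25a4 at 207, Slc25a5 at 796 and the NAD carrier Slc25a51 at 190, whose other probe set read -19. The carnitine carrier Slc25a20 read 184 and the dicarboxylate carrier Slc25a10 171. Slc2a1, the main glucose transporter of activated T cells, read 190, just above the limit, and Slc2a8, an intracellular transporter, 292, while Slc2a3 read 152. Citrate synthase, Cs, read 155, and the pyruvate dehydrogenase subunits Pdha1 and Pdha2 read 6 and 18, so that the step between glycolysis and the citric acid cycle had no reading above noise. In glycolysis Aldoa read 718, Hk1 1412, Pfkfb3, an inducible activator of the pathway, 531, the liver-type phosphofructokinase Pfkl 186 and Tpi1 343. Pfkm, Pgam1 and Pgk1 read 50, 4 and -3. Gapdh, read there only by control probe sets, gave 1522 at its 3′ end.

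Genes of the other listed pathways on the A chip gave 4 of 11 above the limit for the citric acid cycle (Idh1, Idh3g, Mdh1 and Mdh2), 4 of 11 for fatty acid oxidation (Acads, Cpt1a, Etfb and Hadha) and 3 of 5 for the pentose phosphate pathway (Pgd, Taldo1 and Tkt). Mitochondrial import and outer membrane genes had 7 of 10 above it. Of 3 genes of pyruvate and lactate handling, 0 were above it. Of 7 regulators only Hif1a was, with Myc, Tfam, Gabpa, Esrra, Pparg and Vhl below. Cyc1 was the 1 of 5 chain assembly and other genes above it. Of all 4775 genes of the chip, 29.5% were above it.

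Most tissue-restricted isoforms looked at were below noise, but so were most genes of the A chip, of which 29.5% were above the limit on the memory array. The 9 of the A chip were picked from textbook knowledge of their tissues after the values had been seen, so their count is a description, and Slc25a4, the muscle and heart form of the translocase, was not among them and read 207, above the limit. On the memory A array 0 of 9 were above the limit: the muscle forms Cox6a2 (-5) and Cox8b (-50), the testis forms Cox8c (94), Ldhc (-1), Pdha2 (18) and Pgk2 (74), the neuronal enolase Eno2 (33), the liver carrier Slc25a47 (98) and Slc2a2 (16). On the B chip Cox6a2, Eno3, Slc2a2 and Slc2a4 were under the floor in both memory and naive cells. Of 7 partner genes looked at on the A chip, 4 were above the limit, Cox6a1 at 987, Cox8a at 1857, Hk1 and Slc2a1. Pdha1, Pgk1 and Slc2a3 were not. A reading below noise was therefore shared by restricted isoforms and by Pdha1 and Pgk1, which most cells use.

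Members on both chips were read by probe sets of each chip within the memory preparation. For Atp5a1, Cox6a2, Gapdh, Hk1 and Slc25a4 these probe sets carried the same sequence record on both chips. Their agreement is therefore no independent check. In 9 of 10 such genes the memory A and memory B arrays were on the same side of their own noise limit. The share was 72.4% of 398 genes on both chips, counted without control probe sets. Gapdh, read on the A chip by control probe sets only, is thus among the 10 but not among the 398. Aldoa, Atp5a1, Gapdh, Hk1, Slc25a4, Slc25a5 and Tpi1 were above it on both arrays (287 for the memory B array, lower than the floor shared with naive), and Cox6a2 and Slc2a2 on neither. The exception was Cox7c, which read 130 on memory array A and 2072 on memory array B.

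Promoter sequences were set beside these readings to show what the members share besides their function. RefSeq promoters (GRCm38.p6, from 250 bases before to 50 after the annotated start) were found for 86 members. Both strands were searched for CGCATGCG, the core of the site of NRF1, a regulator of nuclear-encoded respiratory genes, for CCGGAAGT, an element of ETS factors such as GABPA, for TATAAA, the TATA box, and for ACGTG, the core of hypoxia response elements. The last lies within CACGTG, which reads the same on both strands. The NRF1 core stood in 9 of 53 promoters of the respiratory chain and ATP synthase and in 1 of 30 glycolysis promoters, against 1.87% of all 32851 promoters in the table. A longer NRF1 motif with 1 free base stood in 18.9% and 6.67%, against 4.60% of all. ACGTG stood in 15 of the 53 respiratory and 15 of the 30 glycolysis promoters, against 19.6% of all. CCGGAAGT stood in 5.66% and 0%, against 3.89% of all, and TATAAA in 9.43% and 3.33%, against 13.6% of all. Mean GC content was 57.8% in the respiratory and 58.2% in the glycolysis promoters, against 53.8% in all, and the shares are not matched for it. A match describes these letters and does not show that a factor binds.

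The first set shows promoters of glycolysis genes with the ACGTG core and of Cycs, which also holds the NRF1 core at base 190, whose readings are given above, with matches in capitals. They are written 5′ to 3′ on the strand of the gene. Aldoa is chr7:126799129-126799428 (minus strand), Ldha is chr7:46845554-46845853 (plus strand), Pkm is chr9:59656977-59657276 (plus strand) and Cycs is chr6:50566520-50566819 (minus strand). For Aldoa, Ldha and Pkm a start with ACGTG is shown, and the promoter of another listed start of each held no ACGTG. In Ldha the ACGTG core also occurs as the longer CACGTG. These 4 genes, in that order, had log2 ratios of 0.65, 0.084, -0.82 and 0.60.
Aldoa: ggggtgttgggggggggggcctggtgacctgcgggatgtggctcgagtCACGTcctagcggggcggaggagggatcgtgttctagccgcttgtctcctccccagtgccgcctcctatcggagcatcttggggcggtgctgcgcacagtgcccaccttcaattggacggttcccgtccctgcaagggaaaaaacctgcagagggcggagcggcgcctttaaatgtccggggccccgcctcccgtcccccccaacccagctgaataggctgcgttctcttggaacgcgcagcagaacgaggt
Ldha: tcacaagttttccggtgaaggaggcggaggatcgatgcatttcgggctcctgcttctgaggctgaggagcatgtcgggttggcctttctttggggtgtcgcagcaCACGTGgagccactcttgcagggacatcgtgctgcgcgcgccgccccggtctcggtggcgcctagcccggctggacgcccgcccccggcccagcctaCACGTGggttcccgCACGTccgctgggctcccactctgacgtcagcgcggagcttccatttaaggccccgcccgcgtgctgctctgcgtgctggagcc
Pkm: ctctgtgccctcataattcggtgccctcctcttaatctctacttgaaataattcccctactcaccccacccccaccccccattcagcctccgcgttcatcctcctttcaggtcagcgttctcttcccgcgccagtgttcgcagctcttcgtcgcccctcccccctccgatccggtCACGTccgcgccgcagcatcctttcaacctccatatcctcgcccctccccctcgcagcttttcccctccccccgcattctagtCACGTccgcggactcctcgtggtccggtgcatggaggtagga
Cycs: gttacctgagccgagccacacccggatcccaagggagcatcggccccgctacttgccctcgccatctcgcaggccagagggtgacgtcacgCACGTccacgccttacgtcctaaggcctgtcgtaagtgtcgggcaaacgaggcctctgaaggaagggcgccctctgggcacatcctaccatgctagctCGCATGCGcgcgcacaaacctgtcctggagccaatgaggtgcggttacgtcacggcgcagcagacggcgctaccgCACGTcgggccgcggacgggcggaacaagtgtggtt

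The second set shows complex IV subunits that differ in their reading on the memory A array. The broadly expressed Cox6a1, chr5:115348909-115349208 (minus strand), holds the NRF1 core at base 90, and Cox8a, chr19:7217567-7217866 (minus strand), holds the ETS element at bases 245 and 282, counted from 1 at the 5′ end. The muscle form Cox8b, chr7:140900397-140900696 (minus strand), holds TATAAA at base 255 and ACGTG at bases 140 and 293. Intensities were 987 for Cox6a1 and 1857 for Cox8a, both above the limit, and -50 for Cox8b, below it. These genes do not stand for the members at large, which went both ways. With the NRF1 core, Atp5j and Atp5k read 301 and 453, above the limit, and Ndufa11 and Uqcrc1 38 and -163, below it. With TATAAA, Atp5md and Ndufb7 read 492 and 962, above it, and Eno2 and Pdha2 33 and 18, below it.
Cox6a1: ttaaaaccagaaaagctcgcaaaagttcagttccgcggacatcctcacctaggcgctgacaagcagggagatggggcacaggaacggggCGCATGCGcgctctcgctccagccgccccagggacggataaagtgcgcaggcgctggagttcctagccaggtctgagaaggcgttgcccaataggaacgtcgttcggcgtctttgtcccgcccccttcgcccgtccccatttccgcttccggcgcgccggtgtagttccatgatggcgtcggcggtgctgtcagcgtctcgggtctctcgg
Cox8a: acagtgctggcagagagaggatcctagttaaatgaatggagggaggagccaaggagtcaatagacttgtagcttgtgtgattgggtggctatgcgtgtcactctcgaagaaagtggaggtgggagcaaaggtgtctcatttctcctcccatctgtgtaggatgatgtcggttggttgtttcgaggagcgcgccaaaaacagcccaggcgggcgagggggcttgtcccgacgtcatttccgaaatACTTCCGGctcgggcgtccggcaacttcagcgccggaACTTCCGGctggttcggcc
Cox8b: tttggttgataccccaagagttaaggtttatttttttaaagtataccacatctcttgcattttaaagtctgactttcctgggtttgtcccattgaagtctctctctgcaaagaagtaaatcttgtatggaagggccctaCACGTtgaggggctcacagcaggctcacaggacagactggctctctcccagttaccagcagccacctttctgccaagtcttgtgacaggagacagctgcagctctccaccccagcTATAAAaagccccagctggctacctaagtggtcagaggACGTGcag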

How the data were processed

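Gene expression was measured in memory and naive CD8 T cells on 4 arrays, 1 per group on each of 2 Affymetrix chips. The authors deposited intensity values, 1 whole number per probe set, some of them negative. Hybridisation followed the chip maker's protocol, per the labels. Neither the software behind the values nor a genome build is given in the sources used here. Samples were grouped by title.

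Gene symbols came from the platform annotation, and all 100 members matched RefSeq genes (GRCm38.p6) by gene number. The B-chip arrays, without control probe sets, were brought to a common 2% trimmed mean by factors of 0.993 and 1.01. Its floor is the 95th percentile of the sizes of negative values on the noisier array, and the A-chip noise limit is that percentile on the memory array. Dimmer values were replaced by the floor for the log2 ratio. Each gene took its brightest probe set, on the B chip the one with the highest value on either array. It was called at 2-fold with the brighter array at least 2 times the floor.

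The naming rule took every measured B-chip member and, on the A chip, members by role with at most 6 values per group in alphabetical order. A few A-chip genes are named beyond that order. The members and lists were chosen with earlier results of these data known. With 1 array per group and chip no test was made, so precision is limited by the number of arrays. The call procedure was tested on simulated data. Alternatives covered scaling (none, median ratio, quantile, lowess with a span of 0.4), the floor, the fold and brightness thresholds, probe set classes and how probe sets of a gene are combined. Separate probe sets and the Gapdh controls were added after seeing the data. Python 3.11.15 with pandas 2.3.3, scipy 1.17.1 and statsmodels 0.14.6 was used.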

Additional observations from a re-analysis of the deposited data

How the results depend on the processing

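The count of 0 members called on the B chip was the same under each scaling and with the mean of probe sets. It stayed 0 with the doubled floor, a 3-fold threshold, the higher brightness limit and when both arrays had to exceed the floor. Those settings are stricter and could not add a call. The lower brightness limit could not either, since a 2-fold ratio over the floor already needs 846. Without sequence-family probe sets the count was 0 as well, but the measured members left all read under 846, too dim for a call. With the floor halved 2 members, Ndufv1 and Pfkfb2, were called lower, whose memory values lie under the reported floor. With a 1.5-fold threshold 1 member, Aldoa, was called higher and 1, Pkm, lower. The median log2 ratio of all members turned to -0.035 without sequence-family probe sets, which left 4 measured members. That of the glycolysis members turned to 0.0016 after median-ratio scaling, 0.093 after quantile and 0.35 after intensity-dependent normalization and to 0.026 with the doubled floor, and the median of the respiratory chain and ATP synthase stayed between 0.028 and 0.25. No measured B-chip member is read by a probe set without a class letter, so that setting gave no B-chip value. On the A chip 25 members (32.1%) were above a doubled limit, against 15.0% of all genes. With only probe sets without a class letter 3 of 16 (18.8%) were above the limit, against 17.5% of all genes with such probe sets. Without sequence-family probe sets 32 of 64 (50%) were, against 27.8% of all genes. The all-gene B-chip counts were 52 higher and 83 lower with the floor halved, 15 and 24 with it doubled, 64 and 71 at 1.5-fold and 12 and 12 at 3-fold, against 41 and 40 as reported. Noise on the B chip limits what can be seen in the 14 members under its floor. No paired analysis was possible because each group has 1 array per chip and the labels carry no replicate numbers.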
